A study of Mus musculus with 32 samples.

Results

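The difference between an anti-PD-1 resistant form of the mouse colon carcinoma line MC38 and its parental form was measured in 2 settings, in subcutaneous tumors and in cultured cells, and the 2 differences were set against each other gene by gene. RNA was sequenced from 13 parental tumors, 12 resistant tumors, 2 parental cultures and 5 resistant cultures, which are all 32 libraries of the series. Tumors grew under the skin of C57BL6/J mice that received no treatment, so both tumor groups were free of antibody. The labels call the 2 lines MC38 parental and MC38-resistant, and do not say how many clones the resistant line holds or whether the cultured libraries came from separate cultures. P-values therefore measure the spread between libraries, which in culture may be technical. That spread is 1 estimate per gene shared by all 4 groups, so it comes mostly from the 25 tumors. Library titles follow one naming series for tumors and another for cultures, so a difference in handling cannot be told apart from the setting. Levels are TPM, the length-scaled share of a gene in its library, and the depth of each library is unknown.

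Of 22329 genes in the deposited table, 15061 reached 1 TPM in at least 2 libraries and were tested. For each gene the line difference in tumors (resistant minus parental, on log2(TPM + 1)) and the line difference in culture were taken from 1 limma fit over all libraries. The interaction is the difference in tumors minus the difference in culture. A difference was called at a Benjamini-Hochberg adjusted p under 0.05. A line difference was kept if it was called in both settings with the same sign, lost if called in culture only, gained if called in tumors only, and reversed if called in both with opposite signs. The last 3 classes also required a called interaction, and a difference called in 1 setting without it was left undecided.

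A tumor made from a cell line is a mixture. The implanted cells meet oxygen gradients, matrix, interferons and other signals that are missing in a dish, and the RNA of the host's macrophages, lymphocytes, fibroblasts and vessels is sequenced with theirs. A gene that tumor cells and host cells both express can thus have a line difference in culture that is diluted in tumors, and a gene of host cells can differ only in tumors. In such bulk samples, fewer cells of a type and less RNA per cell cannot be told apart.

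The libraries of a group were not alike in every case. The pair of parental cultures differed at least 2-fold in 817 of the genes tested (5.43%), 644 of them higher in parental culture 2. Among the 36 type I interferon response genes tested, 27 were at least 2-fold higher in parental culture 2 and none was lower. Resistant culture 1 differed at least 2-fold from each of the other resistant cultures in 7.21 to 8.03% of genes, while pairs among those 4 differed in 2.84 to 4.79%. Of the 1313 genes with a called line difference in culture, resistant culture 1 was the resistant library nearest to the parental mean for 685 (52.2%), and each of the others for 7.01 to 15.4%. Parental tumors 10 and 12 lay nearer to the resistant than to the parental tumor mean for 47.3% and 46.2% of the genes called in tumors. For the other parental tumors that share was 10.3 to 26.5%, and for resistant tumors set against the parental mean 7.55 to 31.5%. In 4 parental tumors, called GC-high here, GC-rich genes stood higher than in the other tumors, with a GC index above 0.5. The index is the median of GC-rich minus that of GC-poor genes, on log2 levels centered per gene within tumors or within cultures. Its median was -0.03 in parental and -0.28 in resistant tumors. The index thus differed between the lines, and adjusting for it may also remove part of a line difference. Host cells were seen in tumors and hardly in culture. Ptprc, the pan-leukocyte phosphatase CD45, had a median of 34.6 TPM in parental tumors against 22.8 TPM in resistant tumors and was at most 0.147 TPM in the cultures. The 6 macrophage markers summed to a median of 680 TPM in parental tumors against 296 TPM in resistant tumors, and to at most 2.36 TPM in any culture. The 10 markers of colon epithelium summed to at most 14.2 TPM in any tumor and 5.42 TPM in any culture, so the defining genes of the labelled tissue of origin were close to absent.

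In tumors 4014 genes were called (26.7% of those tested), 2088 higher (13.9%) and 1926 lower (12.8%) in the resistant line. In culture 1313 were called (8.72%), 525 higher (3.49%) and 788 lower (5.23%). The interaction was called for 604 genes (4.01%), 361 with a higher (2.4%) and 243 with a lower (1.61%) line difference in tumors. These gave 664 kept (4.41%), 318 lost (2.11%), 102 gained (0.677%), 36 reversed (0.239%) and 3507 undecided genes (23.3%). The median standard error was 0.15 for the line difference in tumors, 0.32 in culture and 0.35 for the interaction. Of the genes called in culture, 50.6% were kept, 24.2% lost, 2.74% reversed and 22.5% undecided. Of those called in tumors, 80.0% were undecided, 16.5% kept and 2.54% gained. Most tumor differences could thus be placed in no class at the precision of the cultures. With a minimum of 2-fold for each call, 154 genes were kept, 365 lost, 32 gained and 5 reversed. The balance of directions shifted as well. With that minimum 189 genes were higher and 255 lower in tumors, and with median-of-ratios scaling 1758 and 2228. With quantile normalization within each setting the interaction was higher for 317 and lower for 313. Without parental culture 2, lower interactions outnumbered higher ones.

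**Figure D1:**
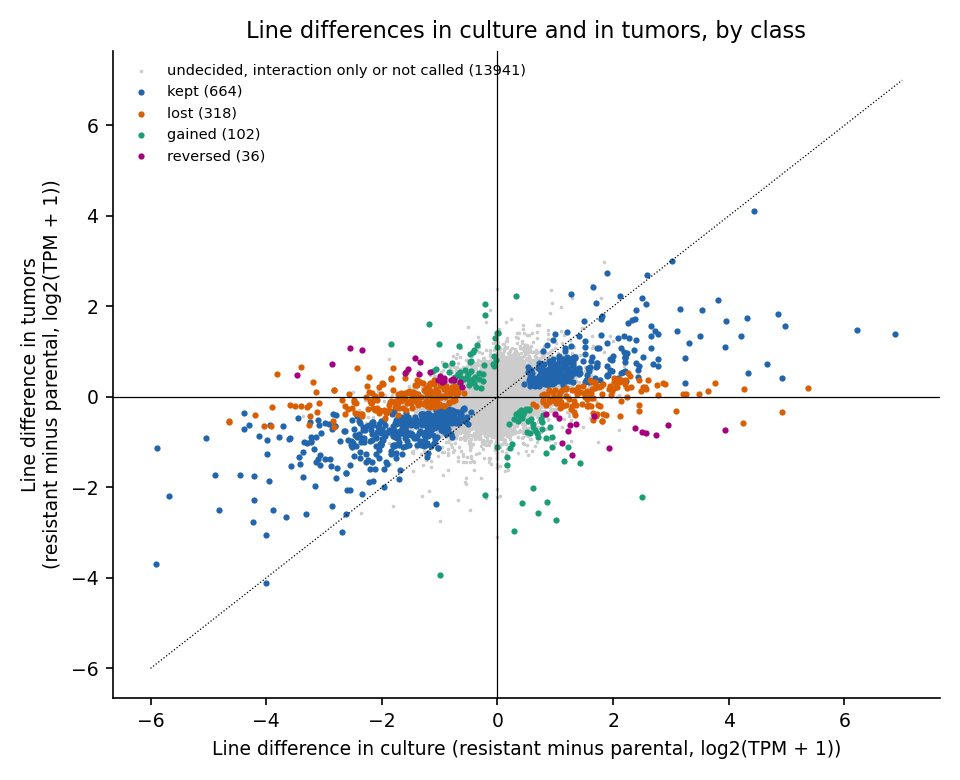
Each point is 1 of the 15061 genes tested, with its line difference in culture on the x axis and in tumors on the y axis, both as resistant minus parental in log2(TPM + 1). Colors mark the 664 kept, 318 lost, 102 gained and 36 reversed genes, grey all others, and the dotted line marks equal differences; the median ratio of tumor to culture difference among kept genes is 0.471.

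The class of many genes changed when 1 of the 2 parental cultures was left out. Without parental culture 1 there were 389 kept, 238 lost, 86 gained and 35 reversed genes, and without parental culture 2 there were 389, 117, 23 and 16. Each of these fits had 1 parental culture, which is assumed to vary like the other groups. The standard error in culture is then larger, so a gene can change class while its difference stays similar. The sign of the interaction turned for 9 of the 318 lost genes without parental culture 1 and for 11 without parental culture 2. It turned in neither case for any gained or reversed gene, and for 37 and 36 of the 664 kept genes. The same class was found in both fits for 255 of the 664 kept genes, 70 of the 318 lost genes, 5 of the 102 gained genes and 9 of the 36 reversed genes. Tumors and cultures were also fitted apart, so that the cultures alone gave the spread of the culture difference. The interaction, which lost, gained and reversed genes require, was still taken from the fit over all libraries. The class was then the same for 395 of the 664 kept and 224 of the 318 lost genes. It was also the same for 91 of the 102 gained and 18 of the 36 reversed genes. Among the genes named below, the culture difference was then not called for Rgs5, Fam129a, Cd68, Eng, Col4a1, Col4a2, Oas3, Egr1, Col3a1, Trp53inp2, Grap, Ccl2, Ccl5, Oas2, Bst2 and Pmp22 (limma adjusted p of 0.0535 to 0.262). In what follows, a class is said to hold without either parental culture where both fits gave it. Leaving out resistant culture 1 gave 725 kept, 352 lost, 110 gained and 43 reversed genes, and leaving out parental tumor 10 gave 666, 339, 141 and 48. With the 4 GC-high parental tumors left out 836 genes were kept, 452 lost, 153 gained and 50 reversed.

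**Figure D2:**
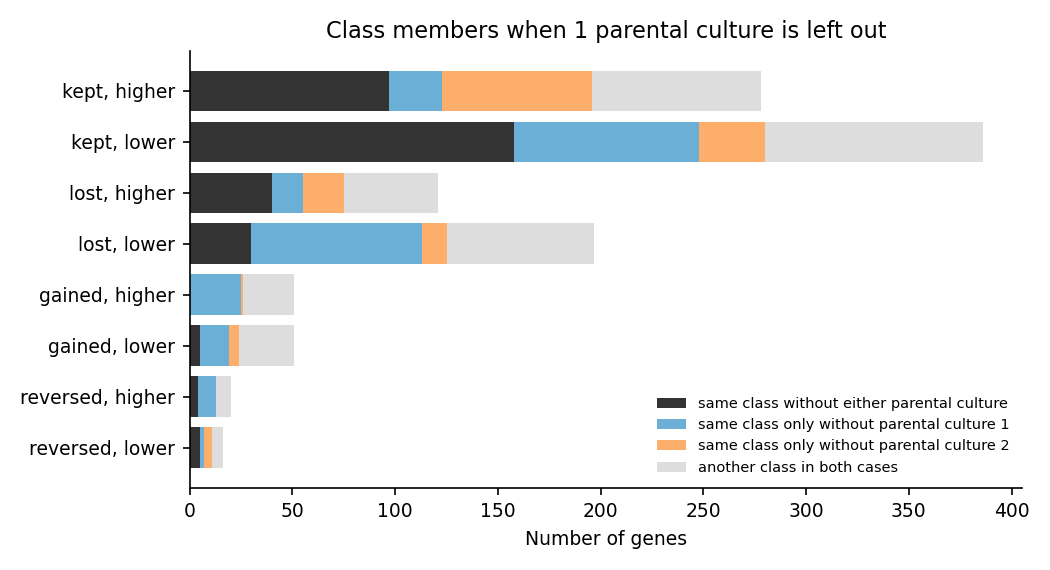
Bars give the number of genes in each class and direction (of the tumor difference, or for lost genes of the culture difference), split by whether the gene has the same class when 1 parental culture is left out. The dark part holds without either culture and is 255 of 664 kept, 70 of 318 lost, 5 of 102 gained and 9 of 36 reversed genes.

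Among the kept genes 278 were higher and 386 lower in the resistant line in both settings. The interaction was not called for 528 of them, was called with a smaller difference in tumors for 135 and with a larger one for 1. The median ratio of the tumor to the culture log2 difference was 0.471. Since a kept gene had to pass in culture, where the standard error is the larger, the selection itself favors large culture differences, and nothing is read from this split or ratio. Ranked by the smaller of its 2 differences, the largest kept decrease was in Prl2c2, a placental prolactin-family hormone whose near-identical copies make its own level uncertain. It was 152 to 1615 TPM in parental tumors (median 530.3) and 15.8 to 47.2 TPM in resistant tumors (median 25.9). In culture it stood at 3077 and 2355 TPM in the parental line and at 531, 113, 126, 125 and 138 TPM in the resistant line. The lines did not overlap in either setting. Over all genes tested, the lines did not overlap in tumors for 129 (0.857%) and in culture for 4140 (27.5%). Separation in culture was thus common. The log2 differences of Prl2c2 were alike, -4.11 ± 0.31 (SE) in tumors and -3.998 ± 0.65 in culture (limma adjusted p = 2.25e-11 and 4.05e-05).

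Cyct, the testis form of cytochrome c, was 4.15 to 36.2 TPM in parental tumors and at most 0.999 TPM in resistant tumors. The parental cultures had 98.4 and 112 TPM, and the resistant cultures 12.8, 0, 0.250, 0 and 0 TPM. Ncam1, a neural cell adhesion molecule, fell by 2.76 in tumors and by 4.23 in culture, and Fam129a had log2 differences of -3.05 and -3.995. In each of these 3 genes resistant culture 1 was the highest of its group, and the kept class held without either parental culture. With cultures fitted alone the culture fall of Fam129a was not called (limma adjusted p = 0.103). On the higher side, Rhox1, an X-linked homeobox gene of the reproductive cluster, was 0 in both parental cultures and 2.06 to 10.4 TPM in resistant culture. Its level was at most 1.41 TPM in parental tumors and at least 2.32 TPM in resistant tumors, so the lines did not overlap in either setting. Sox5, a transcription factor of cartilage and neural crest, rose by 2.14 ± 0.24 in tumors and 3.82 ± 0.50 in culture. Pdgfrb, the platelet-derived growth factor receptor of fibroblasts and pericytes, rose by 1.79 ± 0.16 and 1.81 ± 0.34. It was 5.73 and 4.55 TPM in parental culture, 16.5 to 27.6 TPM in resistant culture, 30.9 to 137 TPM in parental tumors and 141 to 218 TPM in resistant tumors. Rhox1, Sox5 and Pdgfrb were kept without either parental culture. The diacylglycerol kinase gene Dgki rose by 3.01 in tumors and 3.02 in culture, but was undecided without parental culture 2. Rgs5, a G protein regulator of pericytes, rose by 2.69 and 2.59, and was undecided without either parental culture. Its level was 0.0534 TPM in resistant culture 1 and 5.37 to 14.2 TPM in the other resistant cultures.

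Dcn and Mmp9, genes of the matrix, were kept at a smaller size in tumors. Dcn, the matrix proteoglycan decorin, had 1.67 and 6.81 TPM in parental culture and 211, 501, 790.5, 688 and 753 TPM in resistant culture. In tumors it was 13.0 to 638 TPM in the parental line (median 235) and 164 to 619 TPM in the resistant line (median 516). The lines were far apart in culture and overlapped in tumors: the log2 difference was 6.87 ± 0.86 in culture, 1.39 ± 0.41 in tumors, and the interaction -5.48 ± 0.95 (limma adjusted p = 0.000239). After adjustment for the GC index the tumor difference of Dcn was 0.55 and not called (limma adjusted p = 0.221). Mmp9, a matrix-degrading gelatinase, had 0.0719 and 1.84 TPM in parental culture and 80.4 to 179.5 TPM in resistant culture. In tumors it was 42.2 to 629 TPM in the parental line (median 143) and 300.2 to 544 TPM in the resistant line (median 430.4), with an interaction of -4.74 ± 0.62 (adjusted p = 3.52e-06).

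Inhba, which encodes the activin A subunit, did not overlap between the lines in either setting. It was 1.47 and 4.66 TPM in parental culture, 37.9 to 71.5 TPM in resistant culture, 14.9 to 41.7 TPM in parental tumors and 62.5 to 143 TPM in resistant tumors. Its difference was 3.96 ± 0.36 in culture and 1.68 ± 0.17 in tumors (interaction -2.28 ± 0.40). Zeb1, a transcription factor that represses epithelial genes, rose by 2.78 in culture and 0.68 in tumors, and Prrx1, a mesenchymal homeobox gene, by 3.24 and 0.30. Both belong to a list of 12 mesenchymal identity genes. Of these 2 were higher and 3 lower in culture (median -0.01) and 3 higher and 3 lower in tumors. The shares called over all genes tested were 8.72% in culture and 26.7% in tumors. The N-cadherin gene Cdh2 and S100a4 were lower in both settings, and Snai2, a repressor of epithelial genes, was lower in culture. The Prrx1 rise in tumors was not called after adjustment for the GC index (0.17, adjusted p = 0.217). The dual-specificity phosphatase Dusp6, a feedback inhibitor of ERK kinases, rose by 2.14 in culture and 0.34 in tumors, and the latter was not called with that covariate (adjusted p = 0.246). Eng, a TGF-beta co-receptor known from endothelium, rose by 1.91 and 0.48, and was kept without a called interaction when parental culture 1 was left out.

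In the other direction, Map2, a microtubule protein of neurons, was 34.3 and 50.2 TPM in parental culture and 2.44, 0, 0, 0 and 0.0402 TPM in resistant culture. Tumors of both lines held it, at 1.503 to 30.9 TPM in the parental and 1.61 to 8.54 TPM in the resistant line. The interaction of Map2 was 4.13 ± 0.72. Its tumor fall was not called with a pseudocount of 0.1 (limma adjusted p = 0.082) or after adjustment for Ptprc (0.088). Itga6, an integrin subunit of epithelial adhesion to the basement membrane, fell by 2.42 in culture and by 0.42 in tumors. Lfng and Mfng, glycosyltransferases that tune Notch receptors, fell by 3.30 and 2.81 in culture and by 1.01 and 0.65 in tumors. After adjustment for the GC index the tumor differences of Itga6 and Mfng were not called (adjusted p = 0.194 and 0.0915). Dcn, Mmp9, Inhba, Prrx1, Zeb1, Dusp6, Map2, Itga6, Lfng and Mfng had the same class and a called interaction without either parental culture.

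**Figure D3:**
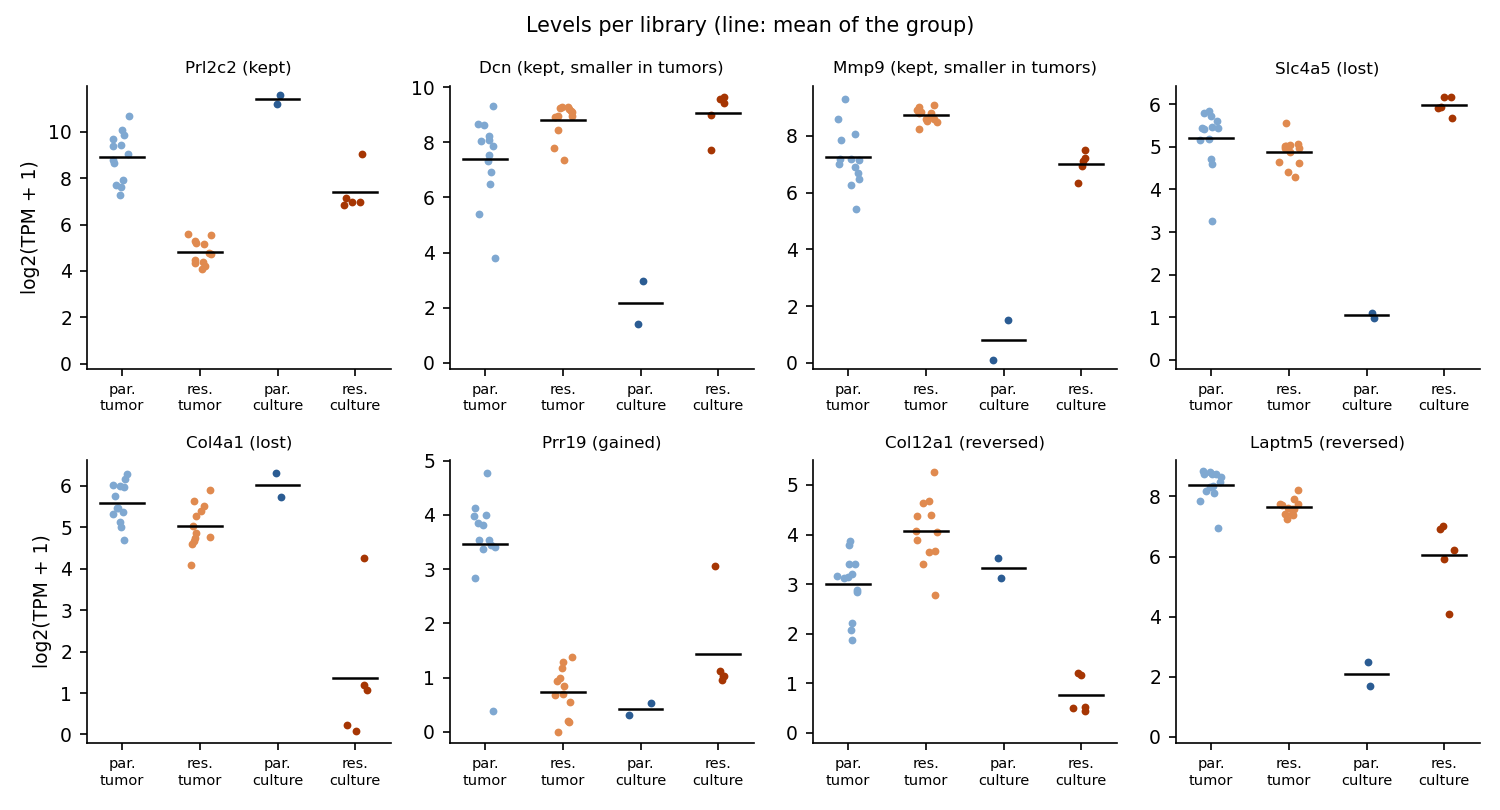
Each panel gives log2(TPM + 1) of 1 gene in all 32 libraries, with a point per library and a line at the mean of each group (par. parental, res. resistant). Prl2c2 is lower in the resistant line in both settings, Dcn, Mmp9 and Slc4a5 separate the lines more in culture than in tumors, Col4a1 separates them in culture, Prr19 is lower in resistant tumors, and Col12a1 and Laptm5 change sign between the settings.

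Of the 318 lost differences 121 were higher and 197 lower in resistant culture. The median log2 difference of the higher ones was 1.65 in culture and 0.06 in tumors, and that of the lower ones -1.53 and -0.03. For 112 of the 121 higher genes the means of both tumor groups lay nearer to the resistant than to the parental culture, and for 77 they lay above both cultures. The lower genes were mixed: both tumor means lay nearer to the resistant culture for 109 of 197 and nearer to the parental culture for 71. For 124 of them both tumor means lay between the cultures. Group means were higher in tumors than in culture in both lines for 89 of the 121 higher genes (73.6%) and 34 of the 197 lower genes (17.3%), against 55.3% of all genes tested. These positions come from the same group means that chose the class and are a description only.

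Slc4a5, a sodium bicarbonate cotransporter, had the largest called interaction among lost genes. Parental cultures had 0.993 and 1.14 TPM, and resistant cultures 70.7, 49.9, 59.1, 70.9 and 60.4 TPM. Parental tumors had 8.63 to 56.3 TPM (median 42.5) and resistant tumors 18.5 to 46.1 TPM (median 30.5). The gene was thus near its floor in parental culture alone, and the tumors of the 2 lines overlapped. The difference was 4.92 ± 0.40 in culture, -0.33 ± 0.19 in tumors (adjusted p = 0.204), and the interaction -5.26 ± 0.45 (adjusted p = 4.05e-10). Stxbp2, a syntaxin-binding protein of granule release in blood cells, was likewise near its floor in parental culture alone. It had 0.204 and 0.510 TPM in parental culture, 16.5 to 95.3 TPM in resistant culture, 29.8 to 85.9 TPM in parental tumors and 37.3 to 138 TPM in resistant tumors (interaction -5.18 ± 0.50). Fyb, an adaptor of T cell and platelet signaling, had 0.467 and 3.03 TPM in parental culture and 34.1 to 66.1 TPM in resistant culture. Its tumor medians were 142 TPM in the parental and 105 TPM in the resistant line. Pacs1, a sorting protein of the trans-Golgi network, had at most 0.562 TPM in parental culture and 23.3 to 29.5 TPM in resistant culture, with tumor medians of 30.7 and 31.6 TPM. Timp3, an inhibitor of metalloproteinases, rose by 2.45 in culture and differed by -0.19 in tumors (adjusted p = 0.34). Slc4a5, Stxbp2, Fyb, Pacs1 and Timp3 were lost without either parental culture. Stxbp2 and Fyb are known from blood cells, whose pan-leukocyte gene Ptprc was at most 0.147 TPM in every culture, and the part of host leukocytes in their tumor levels was not tested.

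Among the lost decreases was the collagen pair of the basement membrane, whose genes lie head to head in the genome. Col4a1 had 78.2 and 51.8 TPM in parental culture and 18.2, 1.11, 0.171, 0.0622 and 1.29 TPM in resistant culture. It was 24.9 to 76.7 TPM in parental tumors (median 43.2) and 16.1 to 58.9 TPM in resistant tumors (median 29.9). Resistant culture 1 thus stood well above the other resistant cultures, and the tumors of the lines overlapped. The interaction was 4.10 ± 0.68 (limma adjusted p = 0.000133). Its partner Col4a2, chosen after the values were seen, fell by 4.19 in culture and differed by -0.40 in tumors (adjusted p = 0.181), with an interaction of 3.79 ± 0.50. Sod3, the extracellular superoxide dismutase, had 20.9 TPM in each parental culture and 0.0776 to 4.21 TPM in resistant culture, while tumors had medians of 6.67 TPM in the parental and 10.1 TPM in the resistant line. Sprr1b, a cornified envelope protein of squamous epithelium, had 44.9 and 24.8 TPM in parental culture and at most 1.74 TPM in resistant culture. In tumors Sprr1b was low in both lines, with medians of 0.600 and 0 TPM, and so the difference was absent there at a low level. Id2, an inhibitor of helix-loop-helix factors, fell from 147 and 143 TPM to 24.3 to 47.0 TPM in culture, and was 15.6 to 31.1 TPM in parental tumors against 14.1 to 25.4 TPM in resistant tumors. Col4a1, Col4a2, Sod3, Sprr1b and Id2 were lost without either parental culture. With cultures fitted alone the culture falls of Col4a1 and Col4a2 were not called (limma adjusted p = 0.0717 and 0.0555). The small heat shock protein gene Cryab had 5.98 and 31.2 TPM in parental culture, 0.173 to 0.610 TPM in resistant culture and medians of 4.79 and 8.83 TPM in tumors. It was not called in any contrast without parental culture 2 (interaction 2.95, adjusted p = 0.157).

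In the gained class 5 of its 102 genes held their class without either parental culture, all lower in resistant tumors: Prr19, Apoe, Cd79a, Klf2 and Rassf2, of which the last 3 were chosen after the values were seen. Prr19, a meiotic crossover gene, was 6.13 to 26.3 TPM in 12 parental tumors, 0.303 TPM in parental tumor 10, and at most 1.59 TPM in resistant tumors. In culture it was 0.456 and 0.245 TPM in the parental line and 7.38, 1.04, 1.03, 1.17 and 0.940 TPM in the resistant line. It was thus high in parental tumors other than tumor 10 and low elsewhere, apart from resistant culture 1. The tumor difference was -2.72 ± 0.31, the culture difference 1.01 ± 0.64 (limma adjusted p = 0.455) and the interaction -3.73 ± 0.71 (0.000811). Apoe, the lipid carrier that macrophages secrete, had medians of 1671 TPM in parental tumors against 550.2 TPM in resistant tumors. It was 2.14 and 1.86 TPM in parental culture and 2.20 to 18.3 TPM in resistant culture. Cd79a, a B cell receptor subunit, fell from a median of 8.56 to 1.21 TPM in tumors without overlap and was at most 2.85 TPM in culture. The low levels of Prr19 and Apoe in parental culture, and of Cd79a in all cultures, limit how far each could fall in culture. For Prr19 there was almost no room for a fall. Klf2, a transcription factor of quiescent lymphocytes and endothelium, fell by 1.12 in tumors and differed by 0.94 in culture (adjusted p = 0.128). Rassf2, a RAS-association domain gene, fell by 0.81 and differed by 0.68 (adjusted p = 0.131).

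The other large gained genes did not keep their class in both fits without 1 parental culture, but their interactions kept their sign. The interaction of Cfap45 was -3.25 without parental culture 1 and -3.25 without parental culture 2. In that order it was -2.52 and -3.35 for Itgb4 and 2.76 and 3.27 for Bche. Rhox2d, a homeobox gene with near-identical copies, was 1.94 TPM in parental tumor 10, 16.1 to 106 TPM in the other parental tumors and 3.83 to 16.8 TPM in resistant tumors. Its tumor difference was -2.22 ± 0.41, and it was undecided without parental culture 1. Slpi, a secreted antiprotease, fell from a median of 14.6 to 1.27 TPM in tumors without overlap, and had 2.28 and 7.68 TPM in parental culture and 1.14 to 23.99 TPM in resistant culture. Cfap45, a ciliary gene, fell from a median of 10.1 to 0.472 TPM in tumors and was at 0 in both parental cultures, which leaves no room for a fall there. Itgb4, the hemidesmosome integrin, was 4.09 to 99.9 TPM in parental tumors and 0.689 to 2.83 TPM in resistant tumors. In culture Itgb4 was 2.29 and 4.84 TPM in the parental line and 5.46, 0.442, 1.16, 0.128 and 1.22 TPM in the resistant line. Itgb4 was undecided without either parental culture and without resistant culture 1 (interaction -2.54, limma adjusted p = 0.0553). Cfap45 was undecided without either parental culture, and Slpi without parental culture 1. On the higher side, the melanosome transport gene Mlph rose from a median of 5.05 to 21.0 TPM in tumors and stood at 3.47 and 3.81 TPM in parental culture and 0.418 to 1.33 TPM in resistant culture. Bche, a cholinesterase, rose by 1.17 in tumors and differed by -1.84 ± 0.64 in culture (adjusted p = 0.0703). Thsd7a, a thrombospondin-domain protein, rose by 2.05 in tumors from a median of 1.09 to 7.78 TPM, with at most 0.765 TPM in any culture. Ptgfrn, a prostaglandin receptor regulator, rose by 1.18. Mlph, Thsd7a and Ptgfrn were undecided without parental culture 2, and Bche without either.

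Reversed differences were 20 higher and 16 lower in resistant tumors. Their class held without either parental culture for 4 of the higher genes, Col12a1, Pmp22, Mfap3l and Arhgef5, and for 5 of the lower genes, Arhgdib, Pid1, Laptm5, Ecm1 and Adamts9. All but Col12a1, Arhgdib and Pid1 were chosen after the values were seen. Col12a1, a fibril-associated collagen, had 7.66 and 10.5 TPM in parental culture and 1.31, 0.354, 0.421, 1.23 and 0.442 TPM in resistant culture. In tumors the order turned, with 2.65 to 13.7 TPM in the parental line (median 7.80) and 5.87 to 37.3 TPM in the resistant line (median 15.7). The lines were apart in culture and overlapped in tumors. The difference was -2.55 ± 0.48 in culture and 1.07 ± 0.23 in tumors, and the interaction 3.63 ± 0.53 (limma adjusted p = 2.07e-05).

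Col3a1, a fibrillar collagen of fibroblasts, rose by 1.05 ± 0.24 in tumors, where it reached medians of 219 TPM in parental tumors against 498 TPM in resistant tumors. In culture it fell by 2.35 ± 0.50, from 41.8 and 58.2 TPM to 3.88 to 17.99 TPM. Itga1, a collagen-binding integrin, rose by 0.86 in tumors and fell by 1.43 in culture. Without parental culture 2 the culture falls of Col3a1 and Itga1 were not called and both were gained. Trp53inp2, an autophagy gene, rose by 0.76 and fell by 1.35, and was undecided without parental culture 2. Pmp22, a myelin membrane protein, rose by 0.73 in tumors and fell by 2.87 in culture, but its tumor rise was not called after adjustment for the GC index (0.55, adjusted p = 0.0588). Mfap3l rose by 0.61 and fell by 1.55, and the guanine nucleotide exchange factor gene Arhgef5 rose by 0.34 and fell by 0.92.

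On the lower side, Laptm5, a lysosomal membrane protein of blood cells, had 2.21 and 4.67 TPM in parental culture and 15.9, 59.98, 121, 128 and 73.9 TPM in resistant culture. In tumors it was 124 to 459 TPM in the parental line (median 356) and 152 to 299 TPM in the resistant line (median 192). Every resistant culture thus lay above both parental cultures, while the tumors overlapped with a lower resistant median. The interaction was -4.67 ± 0.52 (adjusted p = 1.28e-07), and the tumor fall was not called with Ptprc as a covariate (-0.53, adjusted p = 0.0551). Arhgdib, a GDP dissociation inhibitor of hematopoietic cells, had 1.69 and 3.23 TPM in parental culture and 7.16 to 16.1 TPM in resistant culture. It was 73.1 to 196 TPM in parental tumors and 33.2 to 72.2 TPM in resistant tumors, with no overlap in either setting (interaction -3.06 ± 0.37). Ecm1, a secreted matrix glycoprotein, had 21.2 and 42.96 TPM in parental culture and 135 to 329 TPM in resistant culture, with tumor medians of 607 and 458 TPM. The metalloproteinase gene Adamts9 fell by 0.70 in tumors and rose by 2.38 in culture. The tumor falls of Ecm1 and Adamts9 were not called after adjustment for the GC index (adjusted p = 0.0785 and 0.101). Pid1, an inhibitor of insulin signaling, fell by 0.84 in tumors and rose by 2.75 in culture, where it was 0 and 0.324 TPM in the parental line and 3.10 to 12.1 TPM in the resistant line. Grap, an adaptor of lymphocyte receptors, fell by 1.28 in tumors and rose by 1.28 in culture, and was gained without either parental culture. Beside these, the 3 leukocyte markers Ptprc, Laptm5 and Coro1a summed to 2.44 and 5.94 TPM in parental culture and 17.4 to 131 TPM in resistant culture, while Ptprc itself was at most 0.147 TPM there. The sum had medians of 431 TPM in parental tumors against 249 TPM in resistant tumors. The part of host leukocytes in these tumor falls was not tested.

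Type I interferons switch on antiviral genes through the interferon-stimulated response element, which binds the transcription factor complex that their receptor activates. The windows below, from RefSeq promoters on GRCm38.p6, are of genes whose class changed with the parental culture used. Only windows that hold the element were picked, so its presence in them is no result. The interferon response gene Lgals3bp also changed class, and no match was found in its window. Capitals mark the element, on the strand of the gene.
Oas3, chr5:120777705-120777754, minus strand: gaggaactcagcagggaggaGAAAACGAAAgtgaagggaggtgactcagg
Bst2, chr8:71537567-71537622, minus strand: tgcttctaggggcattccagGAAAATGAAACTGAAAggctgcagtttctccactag
Cxcl10, chr5:92349073-92349122, minus strand: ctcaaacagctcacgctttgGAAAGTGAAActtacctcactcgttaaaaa
In Bst2 the capitals span 2 overlapping matches. Searched on both strands of windows from 250 bases before to 50 after the start site, the element was in 3.99% of 27025 genes with a promoter in the table and in 14 of the 26 matched genes of the type I interferon list (53.8%). It was in 4.91% of kept, 3.38% of lost, 2.67% of gained and 7.69% of reversed genes with a promoter, against 4.03% of the 11329 tested genes that matched.

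Of the 36 type I interferon response genes tested, 13 were higher and 1 lower in resistant tumors (median 0.37, against -0.01 over all genes tested). In culture 1 was higher and 6 were lower (median -0.19, against 0 over all genes). The interaction was called higher for 4 and lower for none (median 0.48). Of all genes tested 13.9% were higher and 12.8% lower in tumors. In culture these shares were 3.49% and 5.23%, and for the interaction 2.4% and 1.61%. The mean log2(TPM + 1) of the list was 2.86 in parental culture 1, 4.68 in parental culture 2 and 3.16 to 3.84 in the resistant cultures, so the resistant libraries stood between the parental ones. Without parental culture 1 the culture counts were 0 higher and 16 lower, and the interaction was higher for 17 and lower for none. Without parental culture 2 they were 7 higher and 0 lower in culture, and the interaction was higher for none and lower for 2. The direction of the culture difference of this list, and with it of the interaction, therefore turned with the parental culture left out. The tumor side did not rest on the cultures: list means were 5.83 to 6.90 in parental tumors (median 6.60) and 6.44 to 7.25 in resistant tumors (median 6.90). With the 4 GC-high parental tumors left out 8 genes were higher and 2 lower in tumors.

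Single genes of the list showed the same split. Oas2, an antiviral oligoadenylate synthetase, had 0.539 TPM in parental culture 1, 9.08 TPM in parental culture 2 and 0.0436 to 0.822 TPM in resistant culture. In tumors it rose from a median of 54.5 to 82.0 TPM, a log2 difference of 0.53 ± 0.18 (limma adjusted p = 0.0254). The tumor rise of Oas2 was not called with a pseudocount of 0.1 (adjusted p = 0.125) or with group weights (0.0581). Its culture fall of 1.60 ± 0.37 made it reversed, and without parental culture 2 the culture difference was -0.25. Bst2, the membrane tether tetherin, had 276 TPM in parental culture 1, 721 TPM in parental culture 2 and 230.5 to 310.1 TPM in resistant culture. It rose by 0.39 in tumors, fell by 0.78 in culture, and had a culture difference of -0.08 without parental culture 2. Oas3, a relative of Oas2, had 4.57 and 27.1 TPM in parental culture and 1.198 to 3.33 TPM in resistant culture. Oas3 and the glycoprotein gene Lgals3bp were lost, and neither was called in any contrast without parental culture 2.

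**Figure D4:**
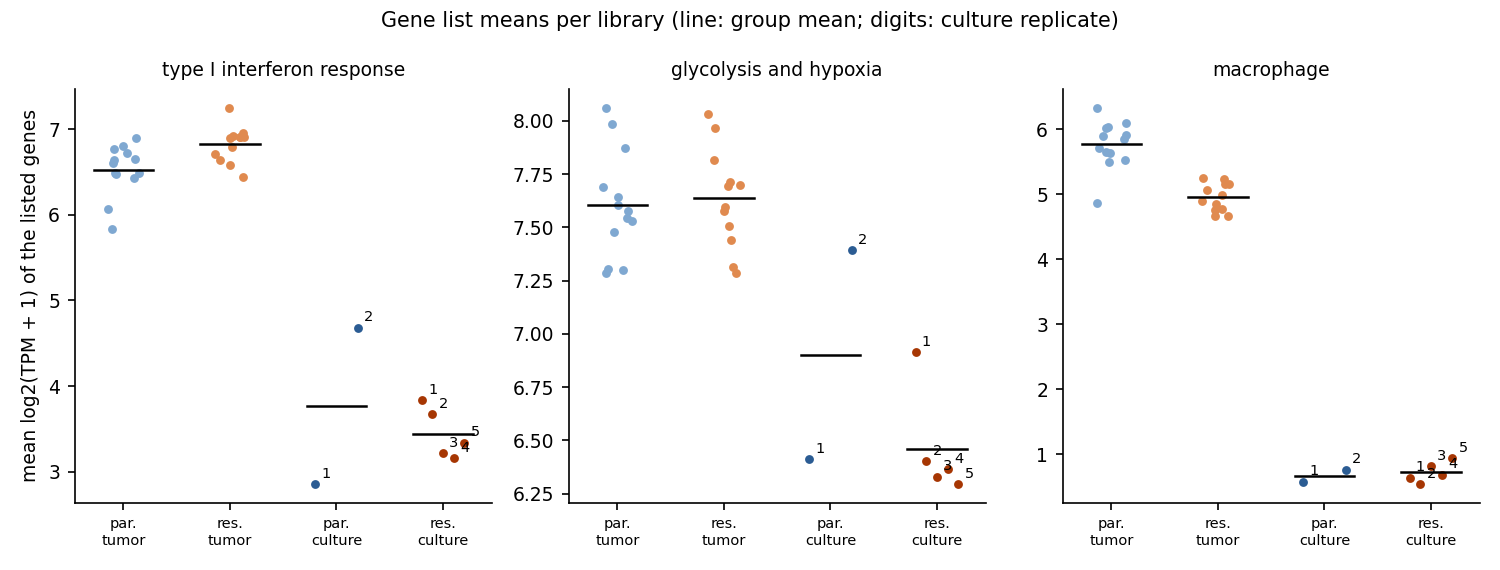
Points give the mean log2(TPM + 1) over the genes of a list in each library, with a line at the group mean and the replicate number beside each culture; the y axes do not start at 0. For the type I interferon list the 5 resistant cultures (3.16 to 3.84) lie between parental culture 1 (2.86) and parental culture 2 (4.68), for glycolysis and hypoxia parental culture 2 (7.39) lies above all other cultures, and the macrophage list is at most 0.944 in culture.

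Glycolysis and hypoxia genes, which respond to low oxygen through HIF1, were also uneven between the parental cultures. Of 26 genes tested 9 were at least 2-fold higher in parental culture 2. The counts were 0 higher and 3 lower in culture and 4 higher and 4 lower in tumors, with the interaction called higher for 1 gene. These counts were near the shares over all genes tested, 8.72% in culture, 26.7% in tumors and 4.01% for the interaction. Without parental culture 1 the culture counts were 0 and 9, and without parental culture 2 no gene was called in culture or for the interaction. Line difference counts were also near the shares over all genes among 20 interferon gamma response GTPases and Irf1. Of these, 4 were higher and 1 lower in tumors and 2 were higher in culture. After adjustment for the GC index, and with the 4 GC-high parental tumors left out, 2 were higher and 2 lower in tumors and 4 higher in culture. After adjustment for Ptprc 10 were higher and 1 lower in tumors. Batf2, a transcription factor of activated macrophages, was lost without either parental culture. It rose by 2.21 ± 0.30 in culture, from 0 and 0.490 TPM to 2.42 to 7.45 TPM, and had tumor medians of 38.4 and 46.2 TPM.

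Antigen presentation through MHC class I shows peptides to CD8 T cells, and interferon gamma signaling through the kinases JAK1 and JAK2 raises it. Of 22 class I and peptide loading genes tested, 6 were higher and 3 lower in tumors, 1 was lower in culture and the interaction was called for 3, and for none without parental culture 2. Of all genes tested 26.7% were called in tumors, 8.72% in culture and 4.01% for the interaction. B2m, the class I light chain, had 1373 and 2369 TPM in parental culture and 1601 to 2290 TPM in resistant culture. Its tumor medians were 10370 TPM in the parental and 9918 TPM in the resistant line, and no contrast was called (interaction -0.21 ± 0.28, limma adjusted p = 0.831). H2-K1, a class I heavy chain, had differences of -0.13 ± 0.11 in tumors and -0.07 ± 0.22 in culture, with adjusted p = 0.38 and 1. With Ptprc as a covariate B2m was called lower in tumors (-0.30, adjusted p = 0.034), as was H2-K1 (-0.25, adjusted p = 0.0444). H2-D1, a further class I heavy chain, fell by 0.34 in tumors and differed by -0.53 in culture (adjusted p = 0.0959), and was undecided. Its tumor fall was not called after adjustment for the GC index (adjusted p = 0.0664). Tap1, the peptide transporter, was lost: it had 24.99 and 38.2 TPM in parental culture, 11.6 to 17.4 TPM in resistant culture and medians of 159.6 and 138 TPM in tumors. Its interaction was 0.85 ± 0.22 (adjusted p = 0.0168), and 0.55 without parental culture 2 (adjusted p = 0.56). Cd274, which encodes the PD-1 ligand PD-L1, had 4.24 and 5.51 TPM in parental culture and 2.01 to 3.64 TPM in resistant culture, and medians of 24.2 and 19.7 TPM in tumors. No contrast of Cd274 was called (interaction 0.84 ± 0.70), but its tumor difference was -0.50 and called after adjustment for the GC index (adjusted p = 0.0183) and 0.77 and called with Ptprc as a covariate (adjusted p = 0.00924). Irf1, a transcription factor of interferon gamma signaling, was not called in any contrast (interaction -0.30 ± 0.30).

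Jak2 was gained. It was 13.3 to 21.6 TPM in parental tumors and 22.7 to 33.8 TPM in resistant tumors without overlap, 8.96 and 15.9 TPM in parental culture and 10.8 to 13.7 TPM in resistant culture. The interaction was 0.74 ± 0.20 (limma adjusted p = 0.0296), and 0.35 without parental culture 2, where Jak2 was undecided. The interaction of Jak2 was also not called without resistant culture 3, 4 or 5 (limma adjusted p = 0.0543, 0.054 and 0.0506). Jak1 had the same difference in both settings, 0.60 ± 0.12 in tumors and 0.59 ± 0.25 in culture. Only the former was called, so Jak1 was undecided (interaction 0.01 ± 0.28).

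Chemokines draw in monocytes and T cells. Of 22 tested, 2 were higher and 5 lower in tumors, 4 were higher and none lower in culture, and the interaction was called lower for 3 and higher for none. Over all genes tested the shares called were 26.7% in tumors, near that of the chemokines, 8.72% in culture and 4.01% for the interaction. Ccl2, the monocyte attractant, was 224 and 183 TPM in parental culture and 254, 565, 502, 367 and 617 TPM in resistant culture. It was 123 to 327 TPM in parental tumors (median 235) and 87.6 to 209.6 TPM in resistant tumors (median 109). Ccl2 rose by 1.11 ± 0.30 in culture and fell by 1.03 ± 0.14 in tumors (interaction -2.14 ± 0.33, limma adjusted p = 4.51e-05), and was gained without either parental culture. Ccl5, a T cell attractant, had 6.18 TPM in parental culture 1, 61.0 TPM in parental culture 2 and 83.8 to 206 TPM in resistant culture. It fell by 0.78 in tumors and rose by 2.50 in culture, and was undecided without parental culture 1 (interaction -1.72, adjusted p = 0.0635). Cxcl10, induced by interferon gamma, had 90.6 and 241 TPM in parental culture and 479 to 637 TPM in resistant culture, above both. Tumor medians of Cxcl10 were 1439 and 1032 TPM, with a difference of -0.37 ± 0.17 (adjusted p = 0.0966). It was lost, and was called in no contrast without parental culture 1. Without parental culture 1 no chemokine was called in culture, with cultures fitted alone 1 was, and with the 4 GC-high parental tumors left out the interaction was lower for 5.

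Macrophage genes were lower in resistant tumors, 16 of 18 tested, with 1 higher. Of all genes tested 13.9% were higher and 12.8% lower in tumors, 8.72% were called in culture and 4.01% for the interaction. Among the macrophage genes 1 was lower in culture, 10 of the 18 stayed below 1 TPM in all cultures, and the interaction was called lower for 3. With the 4 GC-high parental tumors left out it was called lower for 9, and without either parental culture in turn for 1. Ms4a7 and the complement gene C1qa, both of tissue macrophages, fell from medians of 102 to 34.7 TPM and of 214 to 86.9 TPM in tumors. They were at most 0.805 and 0.613 TPM in culture, which leaves almost no room for a fall there. Both were gained, and undecided without either parental culture. Cd68, a lysosomal protein used as a macrophage marker, differed from them. It was 11.9 and 31.5 TPM in parental culture and 5.18 to 6.86 TPM in resistant culture, and fell by 1.06 in tumors and 1.53 in culture. Cd68 was kept, and was undecided without parental culture 2. Among 19 T and NK cell genes, 7 were lower in tumors and none was called in culture, where 18 were below 1 TPM throughout. None of these 19 had a called interaction.

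Of all genes tested 13.9% were higher and 12.8% lower in resistant tumors (median -0.01). Fibroblast and collagen matrix genes were higher in resistant tumors for 13 of 22 tested and lower for none (median 0.69). Beside this, the 4 pericyte markers summed to medians of 23.7 and 105.5 TPM and the 4 skeletal muscle markers to medians of 21.0 and 76.5 TPM in parental and in resistant tumors, and their part in the result was not tested. In culture 6 of the 22 were higher and 2 lower, against 3.49% and 5.23% of all genes. Of the 22, 5 were kept and Col3a1 was reversed. With the 4 GC-high parental tumors left out 15 were higher in tumors. The culture counts of the list were 2 higher and 2 lower without parental culture 1, and with cultures fitted alone 3 and 0. Col1a1, the main fibrillar collagen, was 2.06 to 364 TPM in parental tumors against 13.0 to 618 TPM in resistant tumors. It was 1.05 and 1.02 TPM in parental culture and 1.55 to 14.1 TPM in resistant culture. Its tumor difference of 2.18 ± 0.69 was 0.37 and not called after adjustment for the GC index (limma adjusted p = 0.448). With the 4 GC-high parental tumors left out it was 0.89 and not called (limma adjusted p = 0.263). Has2, which makes hyaluronan, rose by 2.99 ± 0.36 in tumors and differed by 1.85 ± 0.75 in culture (adjusted p = 0.139). Resistant culture 1 had 3.60 TPM of Has2, within the parental pair at 3.97 and 2.75 TPM, and the other 4 had 13.2 to 26.2 TPM. Igfbp4, a binder of insulin-like growth factors, fell by 2.73 ± 0.23 in tumors and differed by -0.99 ± 0.48 in culture. Here too resistant culture 1 went apart, at 87.0 TPM against 7.82 to 21.96 TPM in the other 4 and 34.0 and 49.0 TPM in parental culture. Has2 and Igfbp4 were undecided.

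Signaling lists were split between classes. Of 29 TGF-beta and activin genes, 8 were higher and 1 lower in tumors, 4 were higher and 3 lower in culture, and 4 were kept, 3 lost and 1 gained. Over all genes tested 26.7% were called in tumors, 8.72% in culture and 4.01% for the interaction. The tumor calls of the TGF-beta and activin list were thus near the share over all genes. Of 16 Wnt and beta-catenin targets 7 were lower in tumors and none higher, and the interaction was lower for 4. Tcf7, a Wnt effector that T cells also express, fell from a median of 15.6 to 7.80 TPM in tumors, and was 5.92 and 5.77 TPM in parental culture and 5.54 to 14.6 TPM in resistant culture. Myc fell by 0.50 in tumors and differed by 0.58 in culture, and Ccnd1, the G1 cyclin, rose by 0.78 in culture and differed by 0.04 in tumors. Without parental culture 1 the interaction was higher for 1 Wnt target and lower for 1, and without parental culture 2 it was called for none. With the 4 GC-high parental tumors left out 4 of 15 targets tested were lower in tumors. Of 16 Notch pathway genes 6 were higher and 3 lower in tumors and 2 were lower in culture. The receptor gene Notch1 rose by 1.13 ± 0.20 in tumors and differed by -0.66 ± 0.41 in culture, and was gained with all cultures and undecided without either parental culture. Of 19 immediate early genes 4 were higher and 1 lower in culture, and 1 higher and 5 lower in tumors. After adjustment for the GC index 3 were higher and 3 lower in tumors. The tumor calls of the immediate early genes were also near the share over all genes. The growth response gene Egr1 rose by 1.82 in culture and differed by 0.29 in tumors, and Klf4 fell by 2.35 and differed by -0.39. Both were lost; Egr1 was undecided without parental culture 1 and Klf4 without parental culture 2. Of 18 ER chaperones 6 were higher and 3 lower in tumors and 2 lower in culture. Pdia6, a disulfide isomerase, rose from a median of 617 to 977 TPM in tumors without overlap. It was 1336 and 2434 TPM in parental culture with the resistant cultures between, at 1552 to 2003 TPM, and was undecided without parental culture 2.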

How the data were processed

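Each of the 32 RNA-seq libraries is 1 column of a single deposited table of TPM by mouse gene symbol, and no column lacked a sample. The authors made these TPM values; STAR and the build GRCh38, which is a human build, are named per the submitters' processing notes without versions or roles, and the quantifier is not given in the sources used here. Of the symbols 98.4% are in GENCODE mouse release M21. All columns have the same sum and the smallest value above 0 is 8.57e-317, so neither counts nor depth could be recovered. KAPA RNA HyperPrep libraries were made from Qiagen total RNA after DNase treatment, per the labels.

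Groups follow the line and setting in the labels. TPM were taken as log2(TPM + 1), genes with at least 1 TPM in 2 or more libraries were kept, and limma 3.58.1 in R 4.3.3 fitted 4 group means over all libraries, with empirical Bayes moderation, an intensity trend, two-sided tests and Benjamini-Hochberg adjustment over 15061 genes. All adjusted p-values and standard errors come from that fit or the named alternative. The classification was tested on simulated data. Python 3.11.15 with pandas 2.3.3, numpy 2.4.6 and matplotlib 3.10.9 was used for counts and figures.

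Named genes were, per class and direction, the 4 largest with a group mean of at least 5 TPM (by the smaller line difference for kept and reversed, by the interaction for lost and gained; unnamed gene models, receptor segments and sex-specific genes skipped), fixed genes of antigen presentation, chemokines and stroma, and up to 4 members per list with the lowest interaction p. Some genes that this rule picks are not reported here. The members, gene lists and tests were chosen with earlier results of these data known. Lists are described by counts and medians only. The GC index used 2243 genes with a GC fraction above 0.55 and 885 below 0.42, among 10046 genes averaging 5 TPM or more, 98.6% of which matched. Promoters came from RefSeq. Alternatives were another pseudocount, filters, 3 scalings, robust moderation, group weights, separate fits, a 2-fold minimum, covariates and leaving out each library.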

Additional observations from a re-analysis of the deposited data

Results flagged for a closer look

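For 604 genes the line difference in tumors differed from that in culture by limma's test of the interaction. The values below are log2 interactions of the genes named above, tumor difference minus culture difference, and each was flagged for that called difference. Among genes kept at a smaller size in tumors, the interaction was -5.48 for Dcn, -4.74 for Mmp9, -2.94 for Prrx1, -2.28 for Inhba, -2.1 for Zeb1, -1.8 for Dusp6 and -1.42 for Eng. It was 4.13 for Map2, 2.28 for Lfng, 2.15 for Mfng and 2 for Itga6.

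Among lost increases the interaction was -5.26 for Slc4a5, -5.18 for Stxbp2, -4.82 for Fyb, -4.08 for Pacs1, -2.64 for Timp3, -2.20 for Cxcl10, -1.94 for Batf2, -1.53 for Egr1 and -0.743 for Ccnd1. Among lost decreases it was 4.31 for Sod3, 4.10 for Col4a1, 4.08 for Sprr1b, 4.05 for Cryab, 3.79 for Col4a2, 2.26 for Oas3, 1.97 for Klf4, 1.92 for Id2, 1.12 for Lgals3bp and 0.852 for Tap1.

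Among gained increases the interaction was 3.01 for Bche, 2.78 for Mlph, 2.25 for Thsd7a, 2.18 for Ptgfrn, 1.80 for Notch1, 0.792 for Pdia6 and 0.736 for Jak2. Among gained decreases it was -4.72 for Rhox2d, -3.73 for Prr19, -3.28 for Slpi, -3.25 for Cfap45, -2.93 for Itgb4, -2.89 for Apoe, -2.61 for Cd79a, -2.05 for Klf2, -1.67 for Ms4a7, -1.59 for Tcf7, -1.49 for Rassf2, -1.35 for C1qa and -1.08 for Myc.

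Among reversed genes the interaction was 3.63 for Col12a1, 3.60 for Pmp22, 3.39 for Col3a1, 2.30 for Itga1, 2.17 for Mfap3l, 2.14 for Oas2, 2.11 for Trp53inp2, 1.26 for Arhgef5 and 1.17 for Bst2. It was -4.67 for Laptm5, -3.58 for Ecm1, -3.58 for Pid1, -3.28 for Ccl5, -3.07 for Adamts9, -3.06 for Arhgdib, -2.56 for Grap and -2.14 for Ccl2.

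A resistant culture lay far from the other 4 in 14 of 74 named genes that averaged 1 TPM or more there, by a test of its gap to the nearest library against the range of the group. Chance flags about 1 in 20 groups of independent, normally spread values. These were untransformed TPM of genes mostly named for their differences in these same libraries. The share flagged over all genes tested was not taken, so no excess is read from the count. Resistant culture 1 was the library in 12 of the 14 genes. It was high for Prl2c2 (531 TPM), Igfbp4 (87.0 TPM), Col4a1 (18.2 TPM), Fam129a (14.8 TPM), Jak2 (13.7 TPM), Cyct (12.8 TPM), Ncam1 (12.7 TPM), Col4a2 (10.2 TPM), Prr19 (7.38 TPM), Itgb4 (5.46 TPM) and Lfng (5.17 TPM). It was low for Mlph (0.418 TPM). Resistant culture 4 was high for Notch1 (15.7 TPM), and resistant culture 2 for Col1a1 (14.1 TPM).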

How the results depend on the processing

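No paired analysis was possible because the labels give no replicate numbers that link samples across groups. The number of calls moved by over 1.5 times under 4 alternatives. With group weights the interaction was called for 1109 genes and the culture difference for 2230, and 583 genes were lost, 224 gained and 67 reversed. With the GC index as a covariate these counts were 991, 2031, 534, 184 and 57. With Ptprc as a covariate the interaction was called for 999 genes, the tumor difference for 6207, and 324 genes were gained and 79 reversed. A 2-fold minimum left 444 calls in tumors, 154 kept, 32 gained and 5 reversed genes. Leaving out 1 library at a time gave 231 to 714 interaction calls, 642 to 1526 culture calls, 3583 to 4284 tumor calls, 389 to 759 kept, 117 to 366 lost, 23 to 141 gained and 16 to 48 reversed genes. The lowest interaction, culture, lost, gained and reversed counts came without parental culture 2. Without parental culture 1 the culture difference was called for 809 genes. The tumor difference of Cd274 turned from 0.28 to -0.496 with the GC index as a covariate. The cause of these shifts was not tested. The 2 parental cultures limit the precision of every culture difference.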
